A study of Mus musculus with 9 samples.

Results

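The genes described are 33 genes of glucose uptake, glycolysis, lactate and pyruvate handling and the pentose phosphate path, together with *Hif1a*. They were chosen by gene symbol, and each had 1 row in a table of 21883 genes. RNA was sequenced from invariant natural killer T (iNKT) cells, T cells with a nearly fixed receptor that sees lipids on CD1d, in 9 libraries of 3 groups of 3. WT stage 2 and WT stage 3 iNKT cells came from the thymus of C57BL/6 mice 6 weeks of age. *Med23*-deficient stage 2 iNKT cells came from C57BL/6 thymus carrying floxed *Med23* alleles and a *Cd4-Cre* transgene, which removes this subunit of the mediator complex in double-positive thymocytes and so in other T cells of the same animals too. Their age, the sex of the animals, and whether WT animals carried *Cre* or a library pooled animals are not given in the labels. Stage 2 cells are high for CD44 and lack NK1.1, whereas stage 3 cells carry both.

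Values are FPKM, a gene's fragments per unit of transcript length and per mapped read. Depth in reads is unknown, and between 15584 and 17333 genes lay above 0 per library. *Cd3e*, a chain of the T cell receptor complex, was at 110.1 to 137.8 FPKM throughout, and the NK1.1 gene *Klrb1c* was at 57.3 to 95.1 FPKM in WT stage 3 libraries, 7.65 to 26.2 in WT stage 2 and 2.61 to 4.60 in *Med23*-deficient libraries. *Med23* itself was at 5.51, 5.15 and 6.74 FPKM in WT stage 2, 7.14, 4.44 and 6.12 in WT stage 3 and 4.80, 3.60 and 3.92 in *Med23*-deficient cells, a value over all exons that does not show the deleted part. Summed markers of double-positive thymocytes were at most 5.05 FPKM in any library, the highest single value being 3.05 for *Cd8b1* in WT stage 2. *Rag1* was at 1.12 to 1.58 FPKM in WT stage 3, above its 0.41 to 1.09 in WT stage 2. Summed markers of B, myeloid and erythroid cells were at most 1.69 FPKM. Only 3 of 5 B cell, 3 of 5 myeloid and 1 of 6 erythroid markers had rows. WT stage 3 replicate 2 stood apart, with *Xist* at 47.5 FPKM and the Y-linked *Ddx3y*, *Eif2s3y*, *Kdm5d* and *Uty* at 0, the reverse of the other 8 libraries. The labels do not say whether replicates came from separate animals, so p-values measure the spread between these libraries only.

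Glycolysis splits glucose into pyruvate and yields ATP without oxygen. Glucose enters through facilitative transporters, hexokinase traps it as glucose 6-phosphate, and the enzymes from GAPDH onward yield ATP and NADH before pyruvate is reduced to lactate or carried into mitochondria. The pentose phosphate path branches off at glucose 6-phosphate and makes NADPH and ribose 5-phosphate for nucleotides. In T cells the path is known to be raised during proliferation and after activation, and the transcription factor HIF-1α, made from *Hif1a*, is a known activator of many of its genes.

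HIF-1 binds the core letters ACGTG or GCGTG, and E-box factors such as Myc bind CACGTG, which contains the first of these. The 300 bases around RefSeq start sites (250 before, 50 after, build GRCm38.p6) were available for 32 of the 33 genes in 47 windows. ACGTG or GCGTG stood on either strand of a window in 30 of these 32 genes, against 46.7% of all genes with a window. Counted separately, ACGTG was found in 17 genes and GCGTG in 24, with some genes holding both, against 21.8% and 35.2% of all genes. CACGTG was found in 5 genes, *Hif1a*, *Ldha*, *Pfkfb3*, *Pfkm* and *Slc16a1*, against 8.09%. Counted by window, the shares were 42.6% against 19.6% for ACGTG, 61.7% against 32.4% for GCGTG and 10.6% against 7.15% for CACGTG. These separate counts were not matched for expression or GC content. By window, 38 of 47 held ACGTG or GCGTG, or 80.9%, against 43.8% of all 32851 windows and 63.4% of the 9225 windows of genes averaging 1 FPKM or more. The median GC content was 61.3% in the windows of these genes, 61.0% in those of genes at that level and 52.7% in all windows. Where the GC content was 61.3% or more, 22 of 24 windows of these genes held the letters, against 73.3% of the windows of genes at that level. The core letters were not found in the windows of *Gpi1* and *Tpi1*. A match describes letters and not a bound site. The stretches below belong to genes whose libraries lay apart between WT stage 2 and the other groups, the first 3 lower and the last higher; capitals mark ACGTG or GCGTG on either strand (CACGT and CACGC when read from the other strand). Each ends before the RefSeq start site of its gene.
*Pgk1* promoter, chrX:106186894-106186993, plus strand: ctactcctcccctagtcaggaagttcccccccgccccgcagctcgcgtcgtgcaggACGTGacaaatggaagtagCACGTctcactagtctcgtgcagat
*Pgam1* promoter, chr19:41911708-41911807, plus strand: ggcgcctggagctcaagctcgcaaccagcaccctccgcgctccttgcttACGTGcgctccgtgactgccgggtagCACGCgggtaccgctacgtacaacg
*Hk2* promoter, chr6:82774482-82774581, minus strand: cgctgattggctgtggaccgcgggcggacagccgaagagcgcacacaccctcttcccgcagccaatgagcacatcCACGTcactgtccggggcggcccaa
*Slc2a1* promoter, chr4:119108634-119108733, plus strand: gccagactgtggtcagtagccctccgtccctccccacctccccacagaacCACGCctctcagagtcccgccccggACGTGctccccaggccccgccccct
These genes were picked by their direction in the same data. With the letters in 30 of the 32 genes, finding them before lower and higher genes alike was nearly certain beforehand. Whether the letters go with direction was not tested.

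The first comparison asked how these genes differ between WT stage 2 and WT stage 3 cells. *Pgk1*, the enzyme of the first ATP-yielding step, fell at stage 3. Most other steps from phosphoglycerate to lactate lay lower too, whereas both glucose transporters of the 33 genes lay higher. The summed FPKM of the 33 genes was 537.4, 515.0 and 516.6 in the WT stage 2 libraries and 394.4, 426.0 and 351.6 in WT stage 3. The 3 WT stage 3 libraries thus lay below all 3 of WT stage 2. In limma fits of log2(FPKM + 1) over all 20689 genes, 26 of the 33 had a negative and 7 a positive log2 fold change. Of all genes averaging 1 FPKM or more, 55.3% had a negative one. The median was -0.32 for the 33 against -0.05 for all genes at that level. Rescaled to TPM, 30 of the 33 were negative and 3 positive, with a median of -0.41 when that of all genes at that level was -0.14. With a common upper quartile, 26 were negative and 7 positive, with a median of -0.26 when that of all such genes was 0.02. All 3 WT stage 3 libraries lay below all 3 WT stage 2 libraries for 15 of the 33 genes, against 10.4% of all genes tested, and above them for 2, against 7.36%. Of the 30 genes averaging 1 FPKM or more, 13 lay apart as lower and 2 as higher, against 14.6% and 9.95% of all genes at that level. The unadjusted p was 0.05 or less for 14 genes as lower and 2 as higher, against 7.79% and 5.44% of all genes. In a Ballgown-style linear model, the form of the study's own test, it was so for 4 as lower and 1 as higher, against 11.3% of all genes in either direction. After Benjamini-Hochberg adjustment over all genes, *Pgk1* alone passed 0.05, 1 of 33 against 1.67% of all genes. By the study's thresholds, a fold change of at least 2 on this scale with an unadjusted p of at most 0.05, *Slc2a3* rose and *Ldhb* fell, 2 of 33 against 3.6% of all genes.

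Markers of dividing cells moved with this comparison. The summed FPKM of 10 such markers, *Mki67* and *Top2a* among them, was 47.7 to 63.3 in WT stage 2, 4.14 to 12.6 in WT stage 3 and 5.84 to 6.34 in *Med23*-deficient libraries. All 10 had a negative log2 fold change in both comparisons with WT stage 2, and *Bub1* read 0 in each WT stage 3 library. Their part in the values below was not tested. In bulk RNA, fewer cells of a kind and less RNA per cell cannot be told apart. Without WT stage 3 replicate 2, which had the highest sum of these markers in its group, 29 of the 33 genes had a negative log2 fold change. The median was -0.35, against -0.05 for all genes averaging 1 FPKM or more. In that limma fit 13 passed an unadjusted p of 0.05 as lower and 1 as higher, against 11.6% of all genes in either direction.

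The second comparison asked what the loss of Med23 changes in stage 2 cells. The labels do not say whether the *Med23*-deficient libraries were prepared together with the WT ones, so genotype and preparation cannot be told apart. No gene of the 33 passed the adjusted p or the fold and p thresholds, against 0.213% and 2.11% of all 20674 genes tested by limma, while 9 reached an unadjusted p of at most 0.05. In direction, 25 genes had a negative and 8 a positive log2 fold change, where 56.0% of all genes averaging 1 FPKM or more had a negative one. The median was -0.20 for the 33 against -0.05 for all genes at that level. The 2 comparisons share the WT stage 2 libraries, so their values are given side by side below and not counted as independent. The summed FPKM was 461.0, 454.7 and 397.0 in the *Med23*-deficient libraries, below all 3 of WT stage 2. The 3 *Med23*-deficient libraries lay below WT stage 2 for 9 genes, against 8.37% of all genes, and above for 2, against 5.63%. Of the 30 genes averaging 1 FPKM or more, 8 lay apart as lower and 2 as higher, against 11.9% and 7.1% of all genes at that level. The unadjusted p was 0.05 or less for 7 as lower and 2 as higher, against 6.02% and 3.56%. The median of the 33 depended on scaling: with values rescaled to TPM it was -0.32, when that of all genes averaging 1 FPKM or more was -0.16, and with a common upper quartile it was -0.10, when that of all such genes was 0.04. The split of negative and positive log2 fold changes was 28 and 5 on the TPM scale and 21 and 12 with a common upper quartile. On the TPM scale 11 genes were lower and 1 higher at an unadjusted limma p of 0.05 or less, against 10.1% of all genes in either direction. With a common upper quartile 6 were lower and 2 higher, against 9.10%. In the Ballgown-style model 5 were lower and 1 higher at an unadjusted p of 0.05 or less, against 7.58%.

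**Figure D1:**
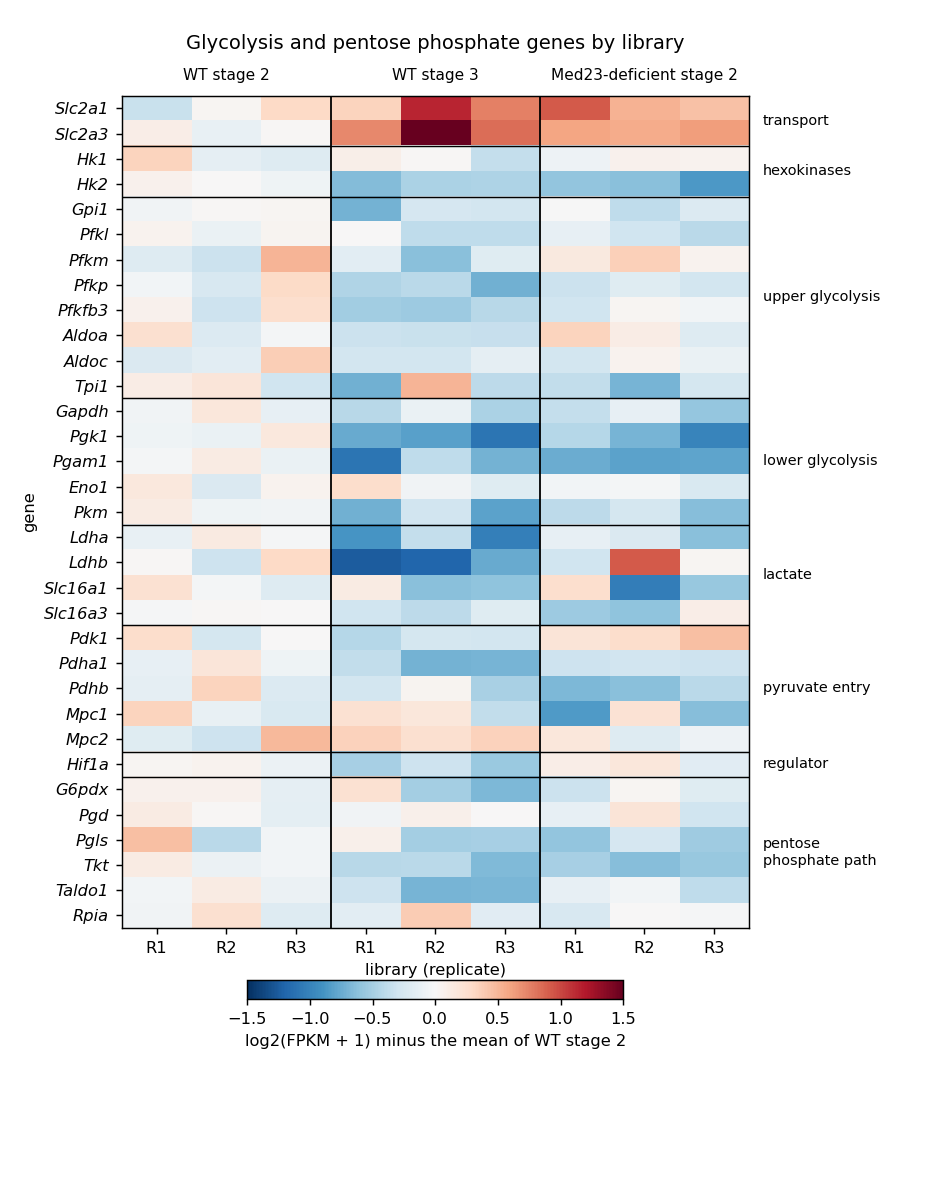
Heat map of the 33 genes (rows, grouped by role) in the 9 libraries (columns R1 to R3 of each group), coloured by log2(FPKM + 1) minus the mean of the 3 WT stage 2 libraries, with the scale cut at -1.5 and 1.5. The glucose transporter rows are red and most rows of lower glycolysis and lactate are blue in WT stage 3, and in *Med23*-deficient stage 2 the transporter rows are red and *Hk2*, *Pgk1*, *Pgam1* and *Tkt* blue, while *Ldhb* and *Hif1a* are not blue throughout.

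The glucose transporters were the only role whose members all lay higher in both comparisons. *Slc2a1* encodes GLUT1, the broadly expressed transporter. It was at 3.07, 4.27 and 5.35 FPKM in WT stage 2, 5.47, 10.4 and 7.68 in WT stage 3 and 8.75, 6.36 and 6.00 in *Med23*-deficient cells. Its lowest WT stage 3 library stood just above its highest WT stage 2 library. At stage 3 the log2 fold change was 0.74 (SE 0.28, limma adjusted p = 0.319), and it was 0.63 (SE 0.24, adjusted p = 0.470) in *Med23*-deficient cells. *Slc2a3* (chr6:122727809-122801640) encodes GLUT3, a transporter of high affinity. It was at 3.79, 3.16 and 3.53 FPKM in WT stage 2, 6.40, 12.1 and 7.03 in WT stage 3 and 5.75, 5.61 and 5.93 in *Med23*-deficient cells, with no overlap between WT stage 2 and either group. Its log2 fold change was 1.03 (SE 0.25, unadjusted p = 0.00604, adjusted p = 0.133) at stage 3 and 0.59 (SE 0.16, adjusted p = 0.285) in *Med23*-deficient cells. WT stage 3 replicate 2 held the highest value of both genes. Without it, the log2 fold changes at stage 3 were 0.54 for *Slc2a1* and 0.78 for *Slc2a3*, and *Slc2a3* no longer reached a fold of 2. Nor did it without replicate 2 of WT stage 2 (0.98) or on the TPM scale (0.95), and in the Ballgown-style model its unadjusted p was 0.109.

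Hexokinase carries out the first step. *Hk1*, the constitutive form, made up nearly all of the hexokinase signal, and its libraries overlapped in all groups, from 10.5 to 17.5 FPKM. *Hk2* (chr6:82725025-82774454), the inducible form, was at 0.89, 0.82 and 0.73 FPKM in WT stage 2, 0.15, 0.30 and 0.31 in WT stage 3 and 0.20, 0.17 and 0 in *Med23*-deficient cells. WT stage 2 stood above both other groups in every library, at a level under 1 FPKM. Its log2 fold change was -0.53 (SE 0.13, limma adjusted p = 0.127) at stage 3 and -0.69 (SE 0.13, adjusted p = 0.139) in *Med23*-deficient cells, and at this level it grew to -1.40 and -2.18 with a pseudocount of 0.1. *Hk2* as a share of summed *Hk1* and *Hk2* FPKM, which does not move with library scaling, was 4.85%, 6.23% and 5.78% in WT stage 2, 1.01%, 2.12% and 2.88% in WT stage 3 and 1.53%, 1.17% and 0% in *Med23*-deficient cells. The 2-sided exact permutation p was 0.10 in each comparison, the smallest that 3 against 3 libraries allow, and 0.60 when adjusted over the 12 shares tested.

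Upper glycolysis, which spends ATP to make triose phosphates, showed smaller differences. All 8 genes had a negative log2 fold change at stage 3, from -0.52 to -0.20, and 4 lay apart with an unadjusted p of at most 0.05, where 10.4% of all genes lay apart as lower and 7.79% had such a p as lower. The sign turned for *Aldoc* in the Ballgown-style model (0.08) and for *Tpi1* without replicate 1 of WT stage 3 (0.06). *Gpi1*, glucose phosphate isomerase, was at 28.7, 30.3 and 30.4 FPKM in WT stage 2 and 17.9, 24.9 and 24.5 in WT stage 3, with a log2 fold change of -0.41 (SE 0.14, limma adjusted p = 0.286). *Pfkp*, the platelet form of phosphofructokinase and the most abundant of its 3 forms in WT stage 2, was at 13.9, 12 and 17.8 FPKM against 10.3, 10.6 and 8.37, a log2 fold change of -0.52 (SE 0.17, adjusted p = 0.266). *Pfkfb3*, whose product makes the phosphofructokinase activator fructose 2,6-bisphosphate, was at 8.71, 6.48 and 10.1 FPKM against 5.51, 5.37 and 5.98, a log2 fold change of -0.49 (SE 0.18, adjusted p = 0.316). *Aldoa*, the main aldolase here, was at 55.5, 40.2 and 45.5 FPKM against 37.2, 37.0 and 36.6, a log2 fold change of -0.33 (SE 0.13, adjusted p = 0.340). In *Med23*-deficient cells these 4 genes overlapped with WT stage 2. There *Pfkl*, the liver form of phosphofructokinase, lay apart at 10.6, 9.30 and 8.54 FPKM against 12.2, 10.8 and 11.99, a log2 fold change of -0.28 (SE 0.12, adjusted p = 0.558). *Pfkm*, the muscle form of phosphofructokinase, *Tpi1*, triose phosphate isomerase, and *Aldoc*, an aldolase at no more than 0.57 FPKM, overlapped in both comparisons with WT stage 2. *Tpi1* spread widely at stage 3, at 4.64, 12.2 and 6.07 FPKM.

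Lower glycolysis held *Pgk1*, the 1 gene past the adjusted p, and *Pgam1*, which came closest to it in *Med23*-deficient cells. *Pgk1* (chrX:106187100-106203699), phosphoglycerate kinase, was at 38.0, 36.9 and 44.4 FPKM in WT stage 2, 23.0, 22.2 and 18.0 in WT stage 3 and 29.3, 24.0 and 19.4 in *Med23*-deficient cells. Every WT stage 2 library stood above every other library. The log2 fold change was -0.89 (SE 0.13, limma adjusted p = 0.0402) at stage 3, 1.89-fold lower by group means, and -0.71 (SE 0.16, adjusted p = 0.211) in *Med23*-deficient cells. The stage 3 call was lost when any 1 of the 6 libraries was left out, with limma adjusted p from 0.0838 to 0.112. It was also lost with values rescaled to TPM (adjusted p = 0.0529) and with replicate number as a block in limma (adjusted p = 0.151). In the Ballgown-style model the adjusted p was 0.399. The log2 fold change stayed between -0.99 and -0.78 in all alternatives. *Pgk1* is X-linked, and WT stage 3 replicate 2, with *Xist*, lay between the other 2 libraries of its group. *Pgam1* (chr19:41911871-41918664), phosphoglycerate mutase, was at 24.6, 27.3 and 23.4 FPKM in WT stage 2, 11.2, 18.98 and 14.97 in WT stage 3 and 14.5, 14.0 and 14.0 in *Med23*-deficient cells. The *Med23*-deficient libraries were close to each other and far below WT stage 2. The log2 fold change was -0.73 (SE 0.19, adjusted p = 0.162) at stage 3 and -0.78 (SE 0.10, adjusted p = 0.0586) in *Med23*-deficient cells. The latter passed 0.05 when genes with a mean FPKM under 1 were left out beforehand, with adjusted p = 0.0396, and ranged from 0.0396 to 0.428 over the alternatives.

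*Pkm*, pyruvate kinase, whose values here pool the M1 and M2 isoforms, was at 55.4, 48.6 and 49.3 FPKM in WT stage 2, 30.6, 41.6 and 28.9 in WT stage 3 and 38.7, 42.4 and 32.3 in *Med23*-deficient cells. Its log2 fold change was -0.60 (SE 0.15, limma adjusted p = 0.148) at stage 3 and -0.43 (SE 0.12, adjusted p = 0.306) in *Med23*-deficient cells, with no overlap in either. *Eno1*, the enolase between *Pgam1* and *Pkm* in the path, did not share this: it was at 43.8, 33.5 and 40.5 FPKM in WT stage 2, 47.1, 37.5 and 34.2 in WT stage 3 and 37.9, 38.1 and 33.2 in *Med23*-deficient cells. Its log2 fold changes were 0.01 (SE 0.16) and -0.10 (SE 0.12), within the spread of the libraries. *Gapdh*, glyceraldehyde 3-phosphate dehydrogenase and a common reference gene, was listed at only 5.98 to 10.8 FPKM, with log2 fold changes of -0.33 (SE 0.16) and -0.35 (SE 0.17) and overlap in both comparisons. Its level is uncertain, since 77 pseudogene models of the GENCODE vM21 annotation matched its transcript at 95% identity or more over at least 100 bases, and the authors used only reads that hit at most 2 loci. The same search found 5 such models for *Ldha*, 4 for *Pgk1*, 2 each for *Eno1* and *Mpc1*, 1 each for *Gpi1*, *Tpi1*, *Pgam1*, *Pkm*, *Ldhb* and *Pdhb*, and 0 for the other genes. Only pseudogene models were counted. A further row, *Eno1b*, was listed at 6.19 to 10.2 FPKM, and whether reads of *Eno1* were split with it was not tested. The row *Pgam1-ps2* was at 14.4, 23.0 and 12.1 FPKM in WT stage 2, 7.83, 11.0 and 10.3 in WT stage 3 and 11.2, 6.21 and 13.4 in *Med23*-deficient cells, so reads of *Pgam1* and its copy may be split between them.

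**Figure D2:**
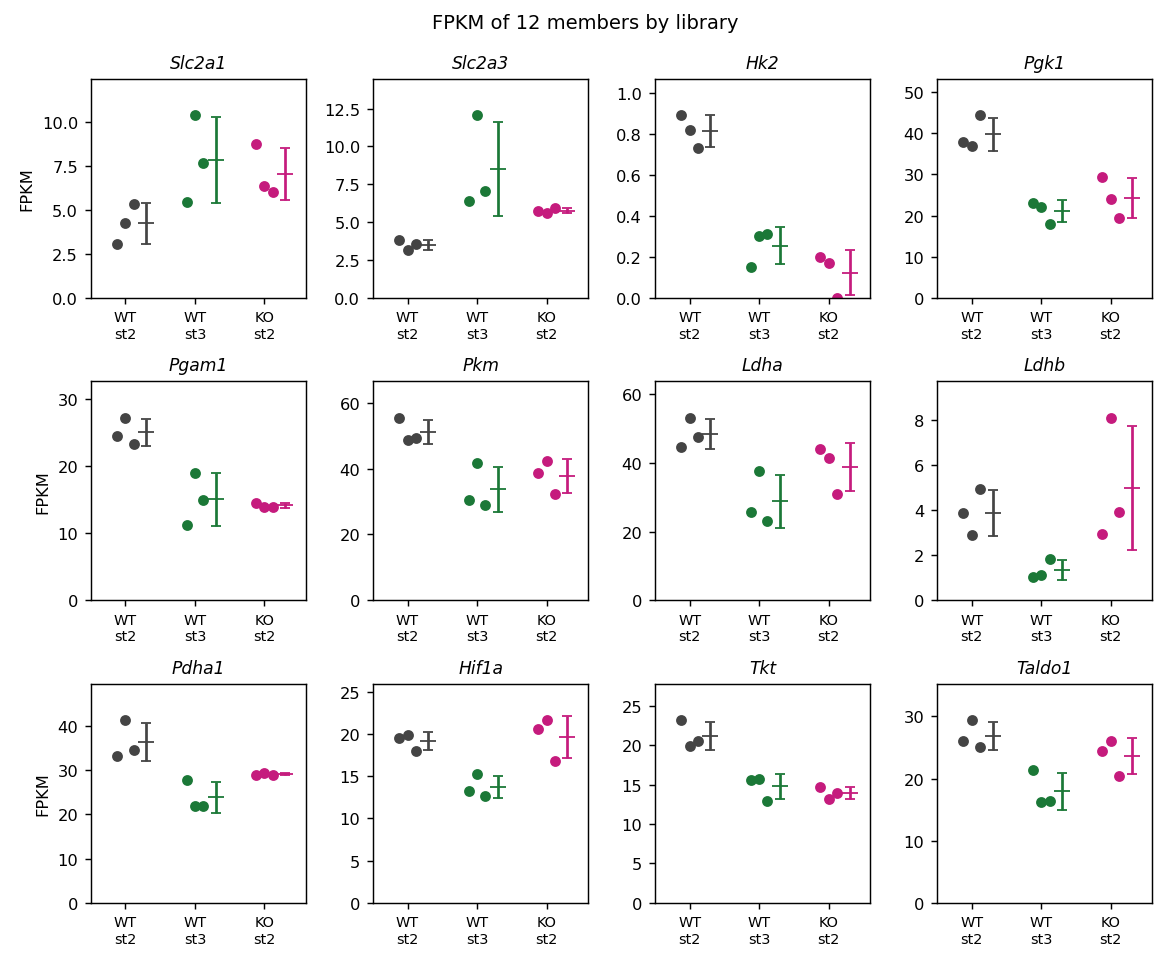
FPKM of 12 of the genes in each library (points) by group (WT st2, WT stage 2; WT st3, WT stage 3; KO st2, *Med23*-deficient stage 2), with the mean and SD of 3 libraries beside them and axes from 0. All WT stage 3 and *Med23*-deficient points lie below all WT stage 2 points for *Hk2*, *Pgk1*, *Pgam1*, *Pkm*, *Ldha*, *Pdha1* and *Tkt*, and above them for *Slc2a1* and *Slc2a3*.

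Of the lactate dehydrogenase genes, both lay lower at stage 3 and *Ldha* alone in *Med23*-deficient cells. *Ldha*, the lactate dehydrogenase subunit that favours lactate formation, was at 44.6, 53.1 and 47.5 FPKM in WT stage 2, 25.7, 37.5 and 23.1 in WT stage 3 and 44.1, 41.4 and 31.0 in *Med23*-deficient cells. Its log2 fold change was -0.76 (SE 0.19, limma adjusted p = 0.142) at stage 3 and -0.32 (SE 0.15, adjusted p = 0.574) in *Med23*-deficient cells, where the highest library lay just below the lowest WT stage 2 library. *Ldhb* (chr6:142490249-142507957), the subunit that favours lactate oxidation, was at 3.86, 2.88 and 4.91 FPKM in WT stage 2, 1.03, 1.11 and 1.84 in WT stage 3 and 2.92, 8.09 and 3.92 in *Med23*-deficient cells. The WT stage 3 libraries stood below all 6 others. The log2 fold change was -1.07 (SE 0.27, unadjusted p = 0.00775, adjusted p = 0.150) at stage 3 and 0.22 (SE 0.36, adjusted p = 0.845) in *Med23*-deficient cells, where it turned to -0.13 without replicate 2, the highest library. *Ldhb* no longer reached a fold of 2 at stage 3 once replicate 3 of WT stage 2, or replicate 1 of WT stage 3, was left out, and its unadjusted p was 0.0897 in the Ballgown-style model. *Ldhb* as a share of summed *Ldha* and *Ldhb* FPKM averaged 7.50% ± 2.15 (SD) in WT stage 2, 4.70% ± 2.36 in WT stage 3 and 11.3% ± 5.06 in *Med23*-deficient cells, with exact permutation p of 0.20 and 0.30 against WT stage 2 and 0.60 for both when adjusted over the 12 shares. *Slc16a1*, which encodes the lactate carrier MCT1, overlapped in all groups, from 1.35 to 4.75 FPKM. *Slc16a3*, which encodes the lactate exporter MCT4, was at 0.69, 0.73 and 0.72 FPKM in WT stage 2, 0.39, 0.31 and 0.51 in WT stage 3, with a log2 fold change of -0.29 (SE 0.13, adjusted p = 0.419), and 0.17, 0.13 and 0.84 in *Med23*-deficient cells, which overlapped.

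The shares of the other isozymes overlapped between the groups. *Slc2a3* took 45.8% ± 8.26 (SD) of the summed transporter FPKM in WT stage 2, 51.8% ± 3.48 in WT stage 3 and 45.4% ± 5.18 in *Med23*-deficient cells. *Pfkp* took 50.5% ± 2.11 of summed phosphofructokinase FPKM, 46.1% ± 4.89 and 49.0% ± 2.84. *Slc16a3* took 15.9% ± 2.71 of summed *Slc16a1* and *Slc16a3*, 13.4% ± 5.35 and 13.1% ± 12.4. *Aldoc* took at most 1.24% of summed aldolase FPKM in any library. The exact permutation p of these shares ran from 0.30 to 0.90, and from 0.60 to 0.90 when adjusted over the 12.

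**Figure D3:**
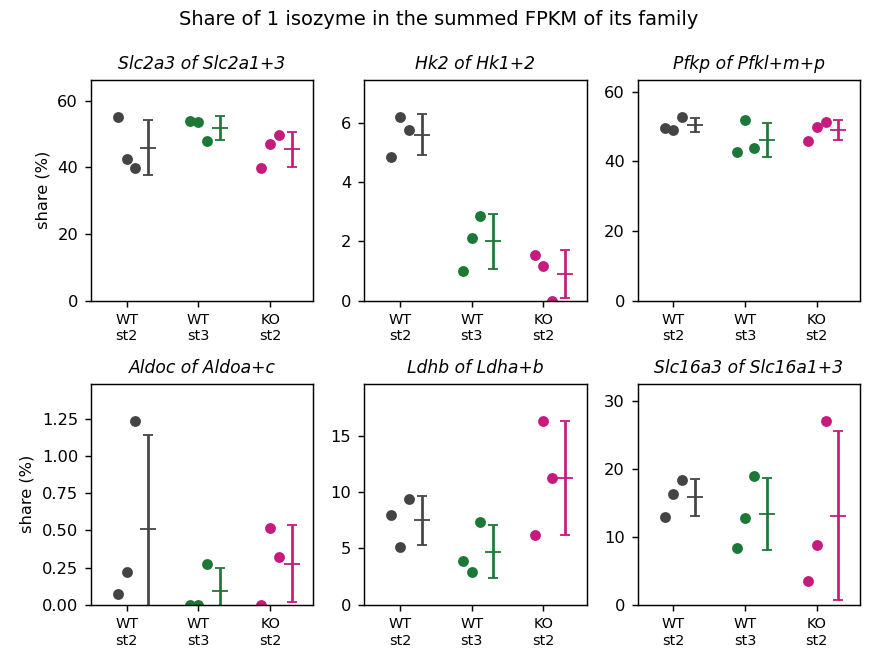
Share (%) of 1 isozyme in the summed FPKM of its family in each library (points) by group (WT st2, WT stage 2; WT st3, WT stage 3; KO st2, *Med23*-deficient stage 2), with the mean and SD of 3 libraries, bars cut at 0. The *Hk2* share lies at 4.85% to 6.23% in WT stage 2 and at or below 2.88% in the other groups, while the other 5 shares overlap WT stage 2 in both groups.

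Pyruvate enters mitochondria through the carrier formed by MPC1 and MPC2 and is oxidised by pyruvate dehydrogenase, which PDK kinases inhibit. *Pdha1*, the E1 alpha subunit, X-linked, was at 33.1, 41.3 and 34.6 FPKM in WT stage 2, 27.9, 21.8 and 21.8 in WT stage 3 and 28.9, 29.4 and 28.9 in *Med23*-deficient cells. Its log2 fold change was -0.59 (SE 0.14, limma adjusted p = 0.124) at stage 3 and -0.30 (SE 0.10, adjusted p = 0.410) in *Med23*-deficient cells, apart from WT stage 2 in both. *Pdhb*, the E1 beta subunit, lay apart in *Med23*-deficient cells, at 9.74, 10.1 and 11.99 FPKM against 14.7, 20.7 and 14.0, a log2 fold change of -0.57 (SE 0.18, adjusted p = 0.362), and overlapped at stage 3. *Pdk1* was at 5.44, 3.45 and 4.36 FPKM in WT stage 2, 2.99, 3.45 and 3.42 in WT stage 3 and 5.12, 5.42 and 6.33 in *Med23*-deficient cells, with overlap against WT stage 2 in both. *Mpc1* and *Mpc2* were low, between 1.01 and 4.39 FPKM, and overlapped in both comparisons. A row for the copy *Mpc1-ps* was listed at 4.65 to 19.98 FPKM, above *Mpc1* itself in every library, so the level of *Mpc1* is uncertain.

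*Hif1a* (chr12:73901375-73947530) was at 19.5, 19.9 and 17.9 FPKM in WT stage 2, 13.2, 15.3 and 12.7 in WT stage 3 and 20.5, 21.6 and 16.8 in *Med23*-deficient cells. WT stage 3 stood below all other libraries. It differed by a log2 fold change of -0.45 (SE 0.11, limma adjusted p = 0.127) at stage 3 and 0.03 (SE 0.12, adjusted p = 0.934) in *Med23*-deficient cells, a value near 0 that was -0.09 on the TPM scale.

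In the pentose phosphate path, the oxidative enzymes overlapped while both transfer enzymes lay lower at stage 3. *Tkt* (chr14:30548359-30574722), transketolase, was at 23.2, 19.9 and 20.5 FPKM in WT stage 2, 15.6, 15.7 and 12.95 in WT stage 3 and 14.7, 13.2 and 13.9 in *Med23*-deficient cells. Every WT stage 2 library stood above both groups, with a log2 fold change of -0.49 (SE 0.12, limma adjusted p = 0.129) at stage 3 and -0.57 (SE 0.10, adjusted p = 0.132) in *Med23*-deficient cells. *Taldo1*, transaldolase, was at 26.1, 29.4 and 25.1 FPKM in WT stage 2 and 21.4, 16.2 and 16.3 in WT stage 3, with a log2 fold change of -0.56 (SE 0.14, adjusted p = 0.135), and at 24.4, 26.1 and 20.3 in *Med23*-deficient cells, which overlapped. *G6pdx*, the entry enzyme, *Pgls*, 6-phosphogluconolactonase, *Pgd*, 6-phosphogluconate dehydrogenase, and *Rpia*, ribose 5-phosphate isomerase, overlapped in both comparisons, with log2 fold changes from -0.32 to 0.02 at stage 3 and from -0.46 to -0.08 in *Med23*-deficient cells. *G6pdx* spread from 5.52 to 11.2 FPKM within WT stage 3.

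**Figure D4:**
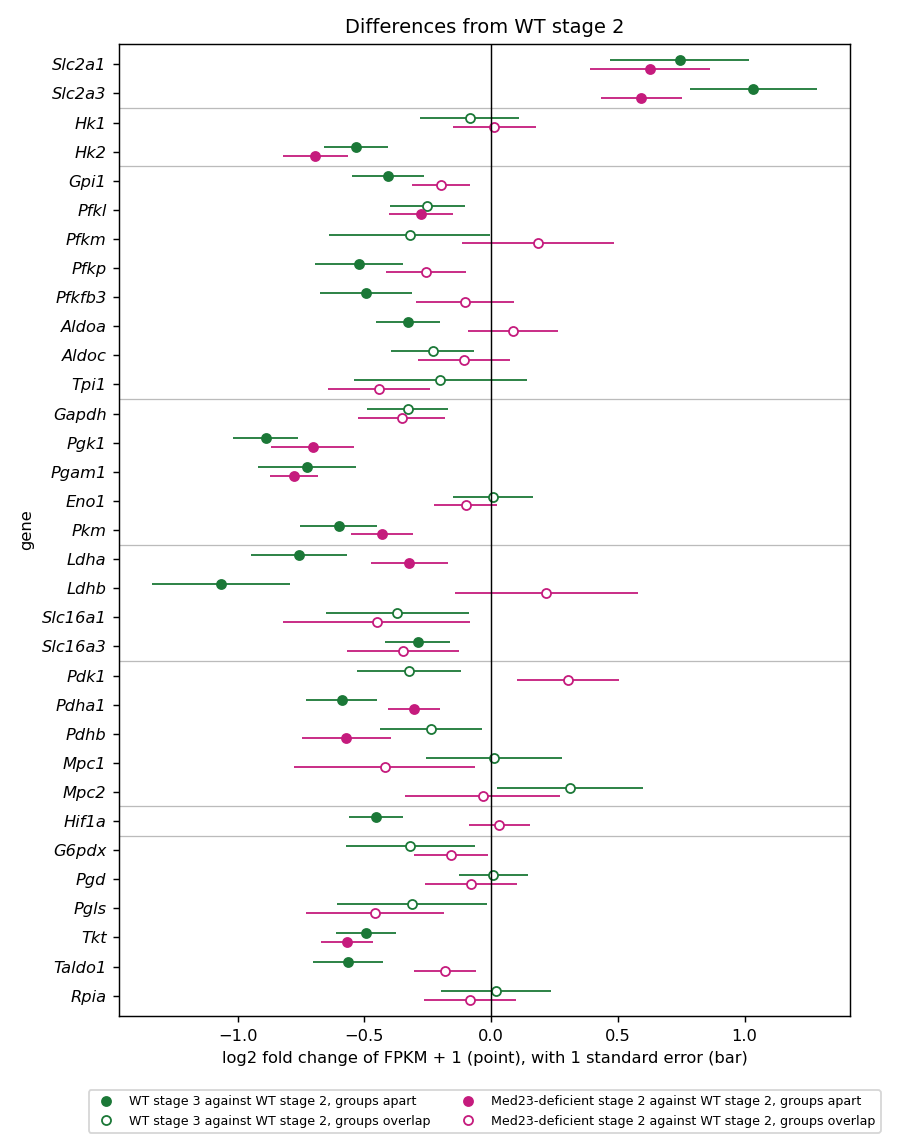
Log2 fold change of FPKM + 1 (points) with 1 standard error (bars) for the 33 genes against WT stage 2, in WT stage 3 (green) and *Med23*-deficient stage 2 (pink), filled where the 3 libraries of each group do not overlap. *Slc2a1* and *Slc2a3* are filled on the right in both comparisons, *Pgk1* lies at -0.89 and -0.71, and *Ldhb* and *Hif1a* lie at -1.07 and -0.45 in WT stage 3 but at 0.22 and 0.03 in *Med23*-deficient cells.

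To see where *Med23*-deficient stage 2 cells differ from WT stage 3 cells, these 2 groups were compared directly, a comparison chosen after the data were seen. No gene of the 33 passed the adjusted p in limma, against 1.33% of 20846 genes, while 7 reached an unadjusted p of at most 0.05, all higher in *Med23*-deficient cells, where 5.32% of all genes did so as higher and 4.89% as lower. In the Ballgown-style model 3 did, against 12.8% of all genes in either direction. By the fold and p thresholds *Ldhb* passed, 1 of 33 against 2.86% of all genes. The median log2 fold change was -0.02 and 17 of 33 were negative, against 50.2% of all genes averaging 1 FPKM or more. The *Med23*-deficient libraries lay above WT stage 3 for 8 genes, *Pfkm*, *Pfkp*, *Pfkfb3*, *Aldoa*, *Ldhb*, *Pdk1*, *Pdha1* and *Hif1a*, against 7.48% of all genes. They lay below for *Slc2a3* and *Mpc2*, 2 genes against 6.75%. *Ldhb* was higher by 1.28 on the log2 scale (SE 0.37, unadjusted p = 0.0132, adjusted p = 0.263), and without *Med23*-deficient replicate 2 by 0.93, under a fold of 2, while in the Ballgown-style model its unadjusted p was 0.0513. *Pdk1* was higher by 0.63 (SE 0.16, adjusted p = 0.203) and *Hif1a* by 0.49 (SE 0.13, adjusted p = 0.230). *Pfkfb3* was higher by 0.39 (SE 0.14, adjusted p = 0.425), *Aldoa* by 0.42 (SE 0.14, adjusted p = 0.36), *Pdha1* by 0.29 (SE 0.11, adjusted p = 0.475) and *Taldo1*, whose libraries overlapped, by 0.38 (SE 0.15, adjusted p = 0.469). *Pfkm* was higher by 0.51 (SE 0.24, adjusted p = 0.572) and *Pfkp* by 0.26 (SE 0.13, adjusted p = 0.572). For *Slc2a3* the log2 fold change was -0.44 (SE 0.24, adjusted p = 0.632) and for *Mpc2* -0.34 (SE 0.22, adjusted p = 0.718). For *Pgk1*, *Pgam1* and *Tkt* the log2 fold changes were 0.18 (SE 0.17), -0.05 (SE 0.19) and -0.07 (SE 0.11), within the spread of the libraries.

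A list of 46 other genes of the same path had 34 rows in the table. Of the 32 tested at stage 3, 5 were lower and 1 higher at an unadjusted p of 0.05 or less, against 7.79% and 5.44% of all genes, and 1 passed both the adjusted p and the fold and p thresholds. *Emb* (chr13:117220625-117274098) encodes embigin, a membrane partner of lactate carriers, and fell from 17.2, 11.3 and 20.2 FPKM in WT stage 2 to values listed at 0, 0.22 and 0 in WT stage 3, while *Med23*-deficient cells were at 8.10, 10.2 and 12.6. Its log2 fold change at stage 3 was -3.97 (SE 0.27, limma adjusted p = 0.00651), and it was 3.38 (SE 0.24, adjusted p = 0.00517) for *Med23*-deficient stage 2 against WT stage 3. At stage 3 the call held with each library left out, with adjusted p up to 0.0481. In the Ballgown-style model the adjusted p was 0.162, and with replicate number as a block in limma the call was lost. *Bsg*, which encodes basigin, the usual partner of MCT1 and MCT4, was at 35.8, 45.8 and 38.6 FPKM in WT stage 2, 32.4, 44.1 and 34.7 in WT stage 3 and 33.9, 29.8 and 26.2 in *Med23*-deficient cells. Of the 33 other genes tested in *Med23*-deficient against WT stage 2 cells, 0 passed the adjusted p or the fold and p thresholds in limma, and 4 had an unadjusted p of at most 0.05. These 4 were all lower, against 6.02% of all genes, and, chosen after their values were seen, were *Dld*, *Pdk3*, *Bsg* and *Prps2*. *Dld*, the E3 subunit of pyruvate dehydrogenase, was at 20.7, 18.5 and 16.8 FPKM against 11.0, 12.6 and 10.2, a log2 fold change of -0.68 (SE 0.13, adjusted p = 0.154). *Pdk3*, a pyruvate dehydrogenase kinase, was at 8.44, 11.7 and 7.42 FPKM in WT stage 2, 4.91, 4.70 and 4.62 in *Med23*-deficient cells and 4.92, 6.39 and 5.27 in WT stage 3, with log2 fold changes of -0.81 (SE 0.19, adjusted p = 0.219) and -0.63 (SE 0.20, adjusted p = 0.242).

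Among 7 oxygen sensing genes, *Egln3* passed the fold and p thresholds in both comparisons with WT stage 2. It encodes a prolyl hydroxylase that marks HIF proteins for breakdown and is a known target of HIF-1. It was at 4.68, 1.99 and 2.76 FPKM in WT stage 2, 0.26, 0.65 and 0.42 in WT stage 3 and 0.94, 0.70 and 0.74 in *Med23*-deficient cells. The log2 fold change was -1.48 (SE 0.31, unadjusted p = 0.00309, limma adjusted p = 0.0945) at stage 3 and -1.16 (SE 0.31, unadjusted p = 0.00966, adjusted p = 0.285) in *Med23*-deficient cells, the latter falling to -0.91, under a fold of 2, without WT stage 2 replicate 1. *Epas1*, which encodes HIF-2α, was at 8.53, 4.76 and 7.91 FPKM in WT stage 2. The WT stage 3 libraries were at 4.37, 2.78 and 5.12 FPKM and the *Med23*-deficient ones at 6.32, 16.2 and 14.4. *Epas1* overlapped with WT stage 2 in both WT stage 3 (log2 fold change -0.66, SE 0.28) and *Med23*-deficient cells (0.66, SE 0.38). It passed the fold and p thresholds between these 2 groups, with a log2 fold change of 1.32 (SE 0.38, unadjusted p = 0.0124, adjusted p = 0.259).

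**Figure D5:**
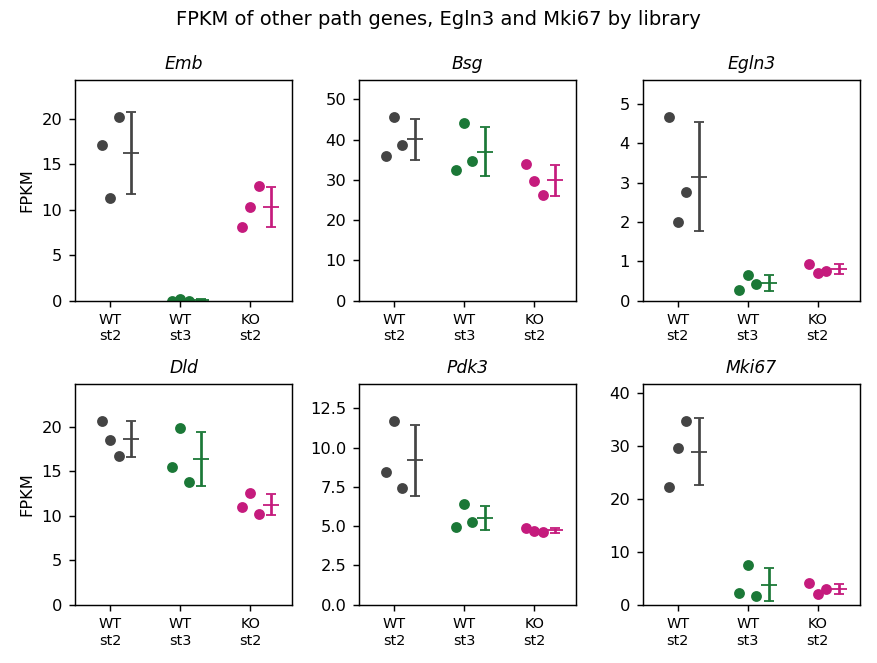
FPKM of *Emb*, *Bsg*, *Egln3*, *Dld*, *Pdk3* and the dividing-cell marker *Mki67* in each library (points) by group (WT st2, WT stage 2; WT st3, WT stage 3; KO st2, *Med23*-deficient stage 2), with the mean and SD of 3 libraries and axes from 0. *Emb* is at or near 0 in WT stage 3 only, whereas *Egln3*, *Pdk3* and *Mki67* are lower than WT stage 2 in every library of both other groups.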

How the data were processed

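According to the paper's methods and the labels, the authors prepared stranded libraries of total RNA from small inputs, trimmed reads with Trimmomatic 0.36, aligned them to mm10 with HISAT2, kept reads hitting no more than 2 loci and quantified GENCODE vM12 genes with StringTie. They deposited FPKM per gene and library, with replicates kept apart and no read counts, so depth and counting error are unknown.

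Here log2(FPKM + 1) was fitted by limma 3.58.1 (R 4.3.3; lmFit, then eBayes with its trend option) on the 6 libraries compared and all genes above 0 in at least 1 of them, with Benjamini-Hochberg adjustment over all genes. A gene passed at an adjusted p of at most 0.05, or at the study's thresholds, a fold of 2 or more with an unadjusted p no higher than 0.05. Shares of isozymes were compared with 2-sided exact permutation tests. Gene coordinates are those of the deposited table; promoter sequences are from RefSeq, and near copies were sought in GENCODE vM21. The genes and lists were chosen with earlier results of these data known. All 33 genes are named, with full statistics where the groups lay apart or the unadjusted p was at most 0.05; listed genes outside the 33 are named where they passed, other names being chosen after values were seen. *Med23*-deficient stage 2 against WT stage 3 was added after the data were seen. Alternatives were other pseudocounts, a mean FPKM of at least 1, TPM scale, a common upper quartile, a Ballgown-style linear model, limma without a trend, all 9 libraries, a replicate block and each library left out. The fit was tested on simulated data with larger differences than those of the 33 genes. That test does not show how often differences of their size would be found. Figures were drawn with matplotlib 3.10.9 in Python 3.11.15.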

Additional observations from a re-analysis of the deposited data

How the results depend on the processing

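Where a gene of the 33 lay apart or had an unadjusted p of at most 0.05, its log2 fold change in that comparison kept its sign under every alternative run. Other values near 0 did turn, *Ldhb* and *Hif1a* in *Med23*-deficient against WT stage 2 cells among them. At stage 3 against WT stage 2, the count past the adjusted p, 1 as reported, was 0 on the TPM scale, in the Ballgown-style model and with the replicate block, 4 with all 9 libraries (*Pgk1*, *Pdha1*, *Slc2a3*, *Hk2*), and 0 to 0 with 1 library left out. The count past the fold and p, 2 as reported, was 1 on the TPM scale (*Ldhb*) and in the Ballgown-style model (*Slc2a1*), and 1 to 2 with 1 library left out. The median log2 fold change, -0.32, was -0.42 with a pseudocount of 0.1, -0.43 with 0.01, -0.41 on the TPM scale, -0.26 with a common upper quartile and -0.45 in the Ballgown-style model, and ran from -0.40 to -0.30 with 1 library left out. For *Med23*-deficient against WT stage 2, 1 gene passed the fold and p with a pseudocount of 0.1 or 0.01 (*Hk2*), and 1 passed the adjusted p among genes averaging 1 FPKM or more (*Pgam1*) and with all 9 libraries (*Hk2*). The median, -0.20, was -0.32 on the TPM scale and -0.10 with a common upper quartile. For *Med23*-deficient stage 2 against WT stage 3, the count past the fold and p was 0 in the Ballgown-style model and 0 to 1 with 1 library left out, and the median, -0.02, turned to 0.036 among genes averaging 1 FPKM or more and ran from -0.039 to 0.10 with 1 library left out, being 0.042, 0.065 and 0.075 without *Med23*-deficient replicates 1, 2 and 3. The causes of these shifts were not tested.

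Correlations between libraries do not settle whether replicate numbers pair them. Those of same-numbered deviations were 0.08, 0.03 and 0.16 at stage 3 and 0.03, 0.004 and 0.14 for *Med23*-deficient against WT stage 2 cells. Between *Med23*-deficient and WT stage 3 cells they were 0.05, 0.04 and 0.27. Differently numbered ones ran from -0.12 to 0.03, from -0.09 to 0.05 and from -0.17 to 0.12 in these comparisons. The main fits left the numbers out. With the replicate block, 0 genes of the 33 passed the adjusted p at stage 3, where over all genes 19 passed in place of 346, and the calls of *Pgk1* and *Emb* there were lost, with adjusted p of 0.151 and 0.0744.

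Limits: 3 libraries per group, no read counts, no preparation batch in the labels, and low genes (*Hk2*, *Slc16a3*, *Aldoc*) whose log2 fold changes depend on the pseudocount.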
